A study of Mus musculus with 2 samples.

Results

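The Schlafen genes of the mouse were examined in 2 cultures of RAW264.7, an established mouse macrophage cell line. The 7 genes of interest were Slfn1, Slfn2, Slfn3, Slfn4, Slfn5, Slfn8 and Slfn9, matched by gene symbol to the platform's gene table. Of these, 6 had a probe set that carries a single gene symbol, out of 22180 genes with such a probe set. Slfn9 had none of its own, because its probe set is shared with Slfn8, so its level cannot be told apart from that of Slfn8. The culture labelled HuR-deficient was set against the wildtype culture. HuR is the product of Elavl1 and binds mRNAs at AU-rich elements, many of which it protects from decay. Cells of both cultures had been transfected, by Lipofectamine 2000, with poly(I:C) of high molecular weight, a synthetic double-stranded RNA that mimics a viral one, and were taken after 8 hours at a labelled dose of 1 mg/ml. The title of the HuR-deficient sample calls it a knockout (HuR-KO), but the sources used here do not say by which method it was made or whether the cells are 1 clone. Each culture gave 1 Affymetrix array, so no replicate spread exists and no test between the cultures was possible. No unstimulated culture was analysed, so no induction by poly(I:C) can be read from the values.

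Schlafen proteins are a family of the immune system, and many of their genes are switched on by type I interferon. The mouse proteins are grouped by length. Slfn1 and Slfn2 are short, Slfn3 and Slfn4 are intermediate, and Slfn5, Slfn8, Slfn9 and Slfn14 are long and carry a helicase-like region at the C-terminal end. The shared N-terminal core binds RNA, and in some relatives, such as human SLFN11 and SLFN13, it cleaves transfer RNA. Interferon acts through its receptor, the kinases Jak1 and Tyk2 and factors that include Stat2 and Irf9, which act on the interferon-stimulated response element (ISRE) in target promoters.

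Slfn8 and Slfn9 lie side by side in RefSeq gene order, and their promoters are shown first because the platform's gene table annotates 1 probe set to both genes. Each promoter window covers 250 bases before and 50 bases after the RefSeq gene start, on GRCm38.p6, printed from 5′ to 3′ on the gene's strand. Capitals mark the ISRE core, searched on both strands as GAAA, any pair of bases, and GAAA again. The Slfn5 promoter is added because it was the other window that held this core.

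Slfn8, chr11:83020761-83021060, minus strand: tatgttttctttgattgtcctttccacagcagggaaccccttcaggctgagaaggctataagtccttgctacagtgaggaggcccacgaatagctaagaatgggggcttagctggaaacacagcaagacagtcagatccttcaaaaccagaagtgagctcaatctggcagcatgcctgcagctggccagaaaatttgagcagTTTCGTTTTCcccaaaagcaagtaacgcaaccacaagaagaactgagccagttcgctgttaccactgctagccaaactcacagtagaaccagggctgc

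Slfn9, chr11:82991781-82992080, minus strand: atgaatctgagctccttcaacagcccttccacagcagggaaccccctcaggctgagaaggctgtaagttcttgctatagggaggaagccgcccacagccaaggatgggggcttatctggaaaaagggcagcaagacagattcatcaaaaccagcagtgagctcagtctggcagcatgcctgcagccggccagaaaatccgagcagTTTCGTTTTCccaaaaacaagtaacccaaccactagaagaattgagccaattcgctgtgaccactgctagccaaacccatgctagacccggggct

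Slfn5, chr11:82951852-82952151, plus strand: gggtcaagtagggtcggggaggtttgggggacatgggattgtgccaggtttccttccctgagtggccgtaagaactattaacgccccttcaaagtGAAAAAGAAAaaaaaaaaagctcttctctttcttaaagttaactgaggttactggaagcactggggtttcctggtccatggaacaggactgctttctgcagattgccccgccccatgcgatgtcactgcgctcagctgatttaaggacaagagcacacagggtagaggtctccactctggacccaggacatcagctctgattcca

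After global alignment the Slfn8 and Slfn9 windows were identical at 252 of 312 aligned positions (80.8%). The other 20 pairs among the 7 windows had identities of 46.5% to 53.0%, with a median of 50.1%. In Slfn8 and Slfn9 the core lay on the opposite strand and began 48 and 45 bases before the gene start, and in Slfn5 it lay on the gene's strand and began 155 bases before it. The core was found in 3 of the 7 windows, against 1131 of all 32851 promoter windows of the same length (3.44%). By gene, with any window counted, it was found in 3.99% of 27025 genes. The members were searched in 1 window each. The Slfn8 and Slfn9 windows are alike, so their hits are not independent, and the Slfn5 hit runs on into a stretch of A. Whether the members hold the core more often than other genes was not tested. Slfn8 has 2 windows in the table, and the one at the outer gene boundary is shown. The gamma-activated site searched as TTCNNNGAA, a palindrome, was found in none of the 7 windows, against 8.30% of all windows.

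Slfn1, Slfn2, Slfn3 and Slfn4, the short and intermediate genes, shared a different stretch. Their longest run in common was ACTTCCTGG, which holds the TTCC core of ETS-family factors. It was chosen because these 4 windows share it, so its presence in them is no finding. None of these 4 windows held an ISRE core. The run stood in 277 of all 32851 windows (0.843%), counted on both strands. The stretches around it are shown with the run in capitals.

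Slfn1, chr11:83116721-83116779, plus strand: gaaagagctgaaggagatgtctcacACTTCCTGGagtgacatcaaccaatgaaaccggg

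Slfn2, chr11:83065032-83065090, plus strand: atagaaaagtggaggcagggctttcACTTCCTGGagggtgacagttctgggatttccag

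Slfn3, chr11:83191263-83191321, plus strand: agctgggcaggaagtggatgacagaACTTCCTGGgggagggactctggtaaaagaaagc

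Slfn4, chr11:83175088-83175146, plus strand: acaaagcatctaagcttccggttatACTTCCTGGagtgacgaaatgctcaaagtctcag

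The run began 74 bases before the gene start in Slfn1, 55 in Slfn2, 42 in Slfn3 and 73 in Slfn4. A match of letters describes these windows and does not show that a factor binds there.

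Of the 6 measured members, 3 had a higher and 3 a lower signal on the HuR-deficient array, and none differed by 2-fold. Over all 11905 genes that reached the signal floor, 0.882% were higher by 2-fold or more and 1.11% lower by 2-fold or more. At 1.5-fold, 0 members were higher, against 5.44% of all genes, and 0 were lower, against 5.32%. With 6 members these counts are near the share of all genes and set the family apart in no way. The differences of Slfn1, Slfn3 and Slfn8 exceeded 1 robust SD of genes with similar signal, and those of Slfn2, Slfn4 and Slfn5 did not. Of similar genes, 12.6%, 17.6% and 15.6% differed by as much as Slfn1, Slfn3 and Slfn8, so differences of this size were not rare. The share of all genes past 1 robust SD was not counted. The members' median difference was -0.02 on the log2 scale, and that of all 22180 named genes was 0. A difference above 0 was found in 49.3% of the genes that reached the floor. The floor, a log2 signal of 4.38, is the median of all named values, and all 6 measured members reached it on at least 1 array. Every difference below is a log2 value, HuR-deficient minus wildtype. Beside it stands the robust SD of the difference over the 500 genes nearest in mean signal, which is a spread between genes and not between replicates.

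**Figure D1:**
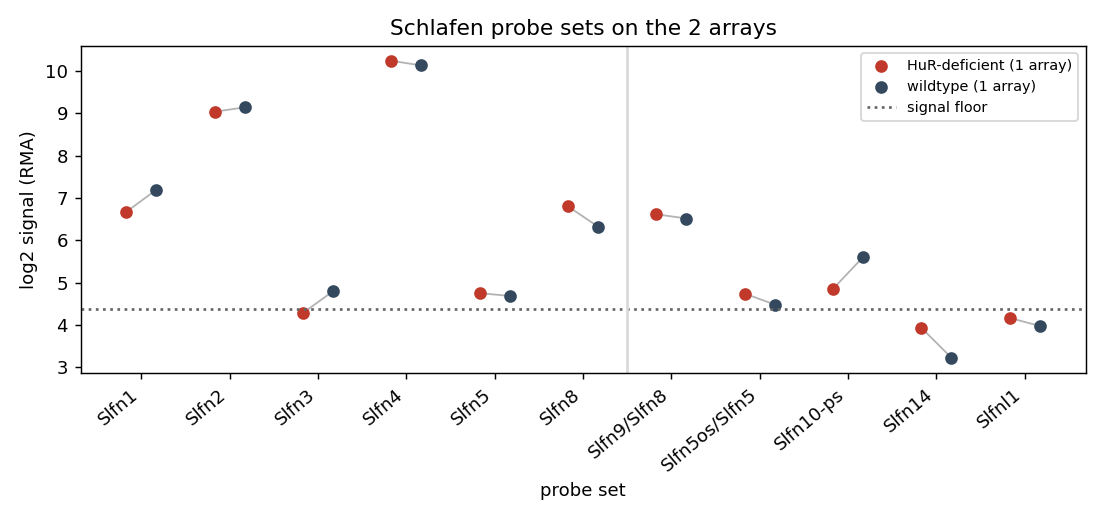
Log2 RMA signal (vertical axis) of each Schlafen probe set (horizontal axis) on the HuR-deficient array (red, left of each pair) and the wildtype array (dark, right). The dotted line is the signal floor of 4.38; Slfn3 lies on its 2 sides, at 4.29 on the HuR-deficient array and 4.80 on the wildtype array.

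Among the short Schlafen genes, Slfn1, whose product slows the growth of thymocytes when overproduced, had a signal of 6.67 on the HuR-deficient array and 7.20 on the wildtype array. The difference of -0.52 was a 1.44-fold lower signal and 1.68 times the local robust SD of 0.31. Of the 500 genes closest to it in signal, 12.6% had a difference as large or larger, in either direction. Slfn2, which keeps T cells and monocytes in a resting state and guards transfer RNA from cleavage in mouse T cells, had 9.04 on the HuR-deficient array and 9.14 on the wildtype array. Its difference of -0.10 was below the local robust SD of 0.25, and 69.2% of similar genes differed by as much. Both short genes therefore had the lower signal on the HuR-deficient array, but the difference of Slfn2 was below its local robust SD.

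With 1 array per culture no member has a settled direction, and the intermediate genes differed in sign. Slfn3, which is expressed in T cells and has been linked in the rat to differentiation of the gut epithelium, had 4.29 on the HuR-deficient array and 4.80 on the wildtype array. The HuR-deficient value lay below the floor and was not shown to be above background, and the gene reached the floor only through the wildtype array. The measured difference of -0.51, with a local robust SD of 0.34, is therefore uncertain in size, also where Slfn3 is counted among the lower members. Slfn4, an interferon-responsive gene of myeloid cells, had 10.24 on the HuR-deficient array and 10.13 on the wildtype array. Its difference of 0.11 was below the local robust SD of 0.22. Its signal stood at percentile 97.5 of all named genes on the HuR-deficient array and 97.3 on the wildtype array, and signal saturation was not tested, so near-equal signals do not show equal mRNA levels.

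Of the long genes, Slfn8 and Slfn5 were measured by their own probe sets. Both had the higher signal on the HuR-deficient array, but the difference of Slfn5 was below its local robust SD. Slfn8, expressed in lymphocytes and myeloid cells and one of the mouse relatives of human SLFN11, had 6.80 on the HuR-deficient array and 6.32 on the wildtype array. The difference of 0.48 was 1.39-fold and 1.54 times the local robust SD of 0.31, and 15.6% of similar genes differed by as much. The probe set shared by Slfn9 and Slfn8 had 6.62 on the HuR-deficient array and 6.52 on the wildtype array, a difference of 0.10 with a local robust SD of 0.32. The probe set of Slfn8 alone and the shared one thus did not give the same size, and whether either reads both transcripts was not tested. Slfn5, whose human counterpart is an interferon-induced nuclear protein, had 4.75 on the HuR-deficient array and 4.69 on the wildtype array. Its difference of 0.06 was well within the local robust SD of 0.32. A second probe set, shared with the antisense gene Slfn5os, had 4.74 on the HuR-deficient array and 4.48 on the wildtype array, a difference of 0.26 against a local robust SD of 0.35.

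**Figure D2:**
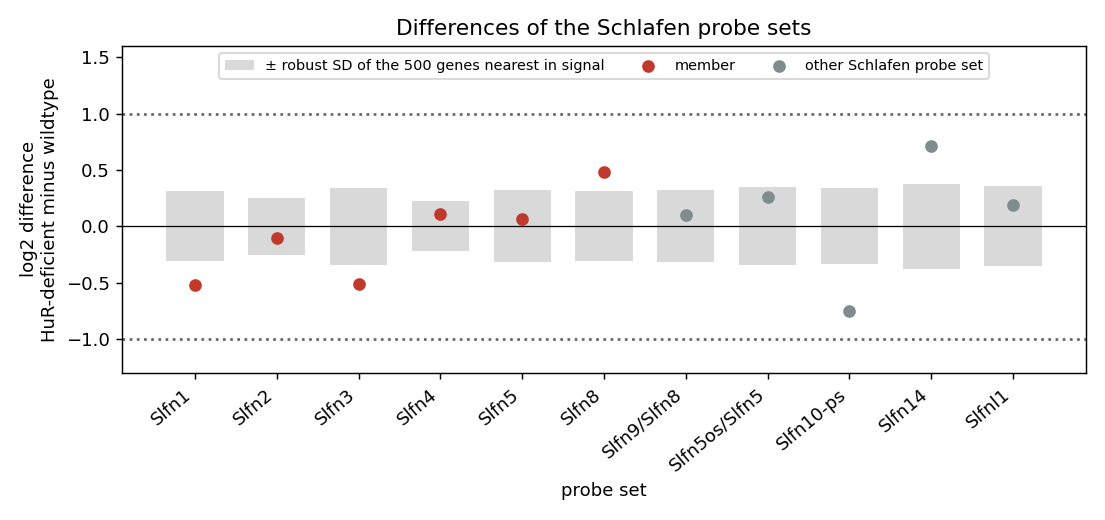
Log2 difference, HuR-deficient minus wildtype (vertical axis), of each Schlafen probe set (horizontal axis), members in red and other Schlafen probe sets in grey. The grey boxes are plus and minus 1 robust SD of the 500 genes nearest in signal and the dotted lines are 2-fold. Slfn1, Slfn3 and Slfn8 lie outside their boxes, and Slfn2, Slfn4 and Slfn5 inside.

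Other Schlafen genes on the array, which are not among the 7, were set beside them. Slfn10-ps, named as a pseudogene, lies between Slfn8 and Slfn2. It had 4.86 on the HuR-deficient array and 5.61 on the wildtype array, a difference of -0.75 (1.68-fold lower), and 4.6% of similar genes differed by as much. Slfn14, whose human counterpart is mutated in an inherited platelet disorder, had 3.93 on the HuR-deficient array and 3.23 on the wildtype array, both below the floor. Slfnl1, a Schlafen-like gene on chromosome 4, outside the cluster, had 4.17 on the HuR-deficient array and 3.98 on the wildtype array, both below the floor. The HuR gene itself did not distinguish the arrays. Elavl1 had 7.75 on the HuR-deficient array and 7.68 on the wildtype array, and whether its probe set lies in a disrupted part of the gene is unknown here. The signal therefore does not check the genotype label, and directions are those of the array with the HuR-deficient label.

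Pathways that induce Schlafen genes were described from lists. Ifnb1, which encodes interferon beta, had a signal of 11.80 on each array. This stood at percentile 99.3 of all named genes on each array. Signal saturation was not tested, so near-equal signals of Ifnb1 do not show equal mRNA levels. Of 52 measured interferon-stimulated genes outside the Schlafen family, 42 had a higher and 10 a lower signal on the HuR-deficient array, with a median difference of 0.19, against -0.02 for the 6 Schlafen members and 0 for all named genes. None was past 2-fold. At 1.5-fold, 5 were past it on the higher side and 1 on the lower. Of all genes that reached the floor, 5.44% were past 1.5-fold higher, 5.32% lower, and 49.3% lay above 0. Iigp1, an interferon-inducible GTPase, had 9.64 on the HuR-deficient array and 8.71 on the wildtype array. Pml, the scaffold of nuclear bodies, had 6.53 on the HuR-deficient array and 5.81 on the wildtype array. Trim30a, a restrainer of inflammatory signalling, differed by -0.79 and the mitochondrial interferon-induced gene Ifi27 by -0.45. The Schlafen members thus spread on both sides of 0, while most listed interferon-stimulated genes lay above it. Whether the lists differ was not tested.

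Of 22 measured genes of interferon reception and signal transduction, 14 had a difference above 0 and 7 below it, with a median of 0.05. Irf8, a transcription factor of myeloid cells, had 10.02 on the HuR-deficient array and 9.03 on the wildtype array (difference 0.98). Tyk2, a kinase of the interferon receptor, differed by 0.66, the receptor subunit gene Ifnar2 by -0.41 and Socs3, a feedback inhibitor, by -0.38. Stat2 and Irf9, which act on the ISRE, differed by 0.07 and -0.09. None of the 22 was past 2-fold. At 1.5-fold, 3 were higher and 0 lower, against 5.44% and 5.32% of all genes that reached the floor. Of those genes, 49.3% lay above 0.

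Of 18 measured genes of transfer RNA processing, nucleic acid turnover and translation control, 14 lay above 0 and 4 below, with a median of 0.14. Among all genes that reached the floor, 49.3% lay above 0. Trmt1, a transfer RNA methyltransferase, differed by 0.66 and Elac2, which trims transfer RNA precursors, by 0.43. The methyltransferase gene Trdmt1 differed by -0.40 and Elac1, a transfer RNA repair enzyme, by -0.31. Some members, such as Ifit1 (0.36), are also in the list of interferon-stimulated genes.

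**Figure D3:**
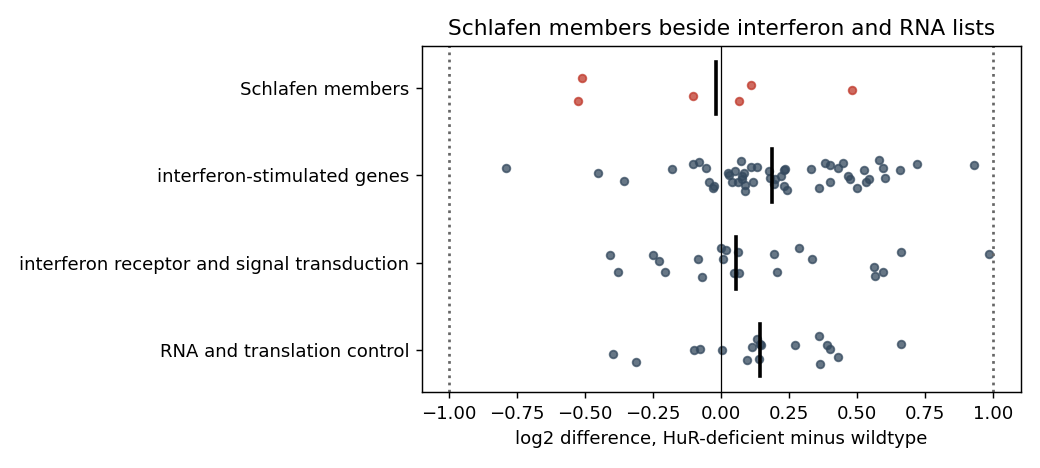
Log2 difference, HuR-deficient minus wildtype (horizontal axis), of the 6 Schlafen members (red) and of the genes of 3 lists (dark), with black bars at the medians and dotted lines at 2-fold. The medians are -0.02, 0.19, 0.05 and 0.14 from top to bottom, and no gene shown is past 2-fold.

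The Schlafen cluster was then set in its neighbourhood. In RefSeq gene order the genes run Slfn5, Slfn9, Slfn8, Slfn10-ps, Slfn2, Slfn1, Slfn4 and Slfn3, followed by the non-coding gene AI662270 and Slfn14. AI662270 had 10.39 on the HuR-deficient array and 10.67 on the wildtype array (difference -0.27). Of the 20 neighbours that reached the floor, 10 on each side, 8 lay above 0 and 11 below, with a median of -0.12. Among all genes that reached the floor, 49.3% lay above 0. The monocyte chemoattractant genes Ccl2, Ccl7 and Ccl12, the outermost 3 on the Slfn5 side, differed by -4.49, -3.04 and -2.44. The 7 neighbours between them and Slfn5 differed by -0.16 to 0.42, with Rad51d, a DNA repair gene, at 0.42 and Unc45b, next to Slfn5, at -0.12. On the other side the values ran from -0.78 for the chemokine gene Ccl9 to 0.34 for Ap2b1, a clathrin adaptor gene. Among neighbours that reached the floor, the 3 chemokine genes past 2-fold were thus separated from the Schlafen genes by neighbours within 2-fold. Genes in between that did not reach the floor were not examined. Of all genes that reached the floor, 1.11% were lower by 2-fold or more.

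**Figure D4:**
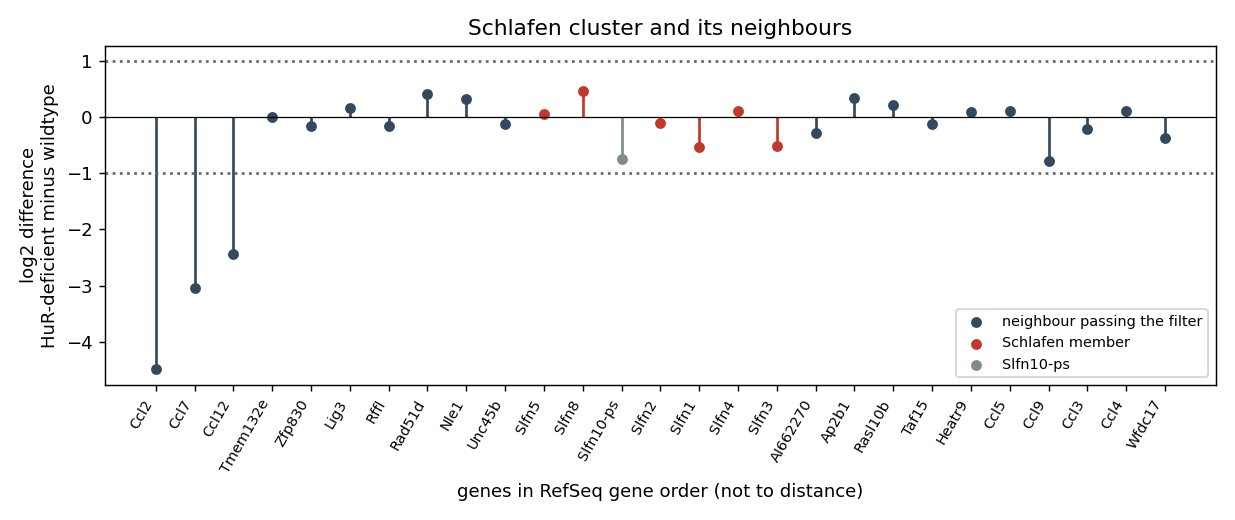
Log2 difference, HuR-deficient minus wildtype (vertical axis), of the Schlafen members (red), Slfn10-ps (grey) and 20 neighbours that reached the signal floor (dark) in RefSeq gene order, not drawn to distance. Dotted lines mark 2-fold; Ccl2, Ccl7 and Ccl12 at the left lie at -4.49, -3.04 and -2.44, and all Schlafen points lie within 2-fold.

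Because Slfn1, Slfn2 and Slfn3 are also known from T cells, markers of cell types were read beside them. All 10 macrophage markers reached the floor, with 3 above 0, 7 below and a median difference of -0.07. The myeloid pore gene Mpeg1 differed by -0.58, the integrin gene Itgam by -0.33 and Spi1, a myeloid transcription factor, by 0.33. Adgre1, an adhesion receptor gene of mature macrophages, was the member past 2-fold (6.51 on the HuR-deficient array and 4.94 on the wildtype array). Among all genes that reached the floor, 49.3% lay above 0 and 0.882% were higher by 2-fold or more. Of 9 measured T and NK cell markers, 4 reached the floor, and over the 9 the differences were above 0 in 4 and below in 5, with a median of -0.09. Their summed linear signal was 149.4 on the HuR-deficient array and 151.2 on the wildtype array. Of 4 B cell markers 1 reached it, with summed signals of 75.2 on the HuR-deficient array and 74.0 on the wildtype array. Of 6 fibroblast and epithelial markers 3 reached it, and 5 of the 6 lay below 0, with a median of -0.49. Their summed signal was 105.7 on the HuR-deficient array and 135.7 on the wildtype array. The keratin gene Krt18 differed by -0.61 (4.05 on the HuR-deficient array and 4.66 on the wildtype array). It reached the floor only through the wildtype array, so the size of its difference is uncertain. The other genes that did not reach the floor were not shown to lie above background. Both cultures are of 1 macrophage cell line. The sums add different probe sets, many of them below the floor, and so do not measure a share of cells. The part of these markers in the Schlafen values was not tested.

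Genes with the most similar pair of signals were listed by Euclidean distance over the 2 log2 values. Nearest to Slfn4 were Rac2 (distance 0.017), Hnrnpdl (0.060) and Sft2d1 (0.064). Nearest to Slfn1, which had the largest absolute difference among the members, were Prelid3b (0.011), Vdac1 (0.022) and Coro2a (0.053). With 2 arrays, many genes have such a pair by their signal alone.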

How the data were processed

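The authors deposited log2 values from RMA, 1 column for each array, per the submitters' processing notes. The sources used here name neither its version nor a genome build. RMA corrects background, gives both arrays 1 distribution and summarises each probe set, which hides any global shift in mRNA. The base of the log2 scale was read from the range of values, 0.434 to 13.77. RNA was extracted with a phenol reagent and biotin-labelled, per the labels' protocols. With 1 array per group, their number limits the precision, and no p-value was computed. No detection calls were used, and a low value does not show absence.

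Of 41345 probe sets, 23521 had 1 gene symbol in the platform's gene table, 1814 had several and 16010 had none. A gene with several was represented by the brightest on average; each measured Schlafen member had 1. Signals of different probe sets are not comparable as levels. The neighbours and gene order come from a RefSeq table of GRCm38.p6. Promoters, with their printed coordinates, come from RefSeq on the same build. No build is named for the array, so no coordinates are given for probe sets. All 7 members matched a promoter. The 2-fold count was tested on simulated differences larger than 2-fold, and the alternative normalisations on a shift added to Slfn4. Both were larger than any member's difference, so they do not show how differences of the members' size are recovered. The other steps were not tested in this way.

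The named genes are the members, the other Schlafen genes, Elavl1, Ifnb1, up to 2 genes per list and direction among those that reached the floor, the 3 nearest in pattern and the nearest neighbours. Stat2, Irf9, Ifit1, Ccl12 and Ccl9 were named after their values were seen. Members and lists were chosen with earlier results of these data known. The tools were Biopython 1.88, matplotlib 3.10.9, numpy 2.4.6, Python 3.11.15, statsmodels 0.14.6 and pandas 2.3.3.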

Additional observations from a re-analysis of the deposited data

Results flagged for a closer look

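Slfn14, a long Schlafen gene outside the 7, had a higher signal on the HuR-deficient array than on the wildtype array (3.93 against 3.23, difference 0.71), which is more than the robust SD of 0.38 of genes with a similar signal. It was singled out because it lies outside the genes compared and its signal exceeds that of the wildtype array. Both values were below the signal floor of 4.38, so neither was shown to lie above background, and 8.6% of similar genes differed by as much. The rule looked only for higher signals on the HuR-deficient array.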

How the results depend on the processing

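All 53 values recomputed for the members, their counts and the interferon-stimulated list stayed within the limits set for them: the local robust SD for a gene, the robust SD over the square root of the list's size for a median, and 1.5 times for a count. The alternatives were centring, a second quantile normalisation, removal of a loess trend (span 0.3), averaging of probe sets, only genes that reached the floor, no floor, and 1.5-fold. Centring and averaging left the members' values as they were, since the median of all genes was 0 and each member has 1 probe set. The floor settings could not change the results either, since all 6 members and all 52 interferon-stimulated genes reached the floor. For Slfn2, Slfn4, Slfn5 and the members' median the limit exceeded the difference itself, so even a change of sign could stay within it. Slfn1 ranged from -0.52 to -0.51, Slfn3 from -0.54 to -0.51, Slfn8 from 0.48 to 0.49 and Slfn5 from 0.04 to 0.06. The median over the members was -0.02 in the report and 0.06 when the probe set shared by Slfn9 and Slfn8, or Slfn10-ps, Slfn14 and Slfnl1, were added, so its sign depends on which Schlafen genes are counted; both additions were chosen after seeing the data. No paired analysis was possible because each group has 1 array, and no array could be left out.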
